A study of Homo sapiens with 8 samples.

Results

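The CITED genes encode a family of transcriptional coregulators, and 3 of its genes, CITED1, CITED2 and CITED4, were followed here among the 63677 genes of the deposited table. They were chosen by symbol, with their change between the groups already known, so their differences are given as descriptions and without a test. All 3 were among the 19559 tested genes, those that reached 10 normalized reads in 4 or more libraries. CITED1 reached that level in 5 libraries, all 4 with the SRC-1 hairpin among them, so it passed largely through the group in which it was high. CITED proteins bind the acetyltransferases CBP and p300 through an acidic C-terminal tail and have no DNA-binding domain of their own. They are brought to genes by transcription factors, or compete with them for the same surface of CBP and p300. CITED1 is known as a coactivator of the estrogen receptor and of SMAD4. CITED2 is induced by hypoxia, competes with HIF-1α for p300 and coactivates AP-2 factors, and CITED4 is also an AP-2 coactivator.

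The cells were LY2, which derive from MCF-7, a luminal breast cancer line with estrogen receptor, and resist endocrine therapy. One group, shSRC1, carried a stable short hairpin RNA against SRC-1, the nuclear receptor coactivator encoded by NCOA1, and the other, shNT, a stable non-targeting hairpin, with 4 libraries each. Every library came from cells grown under 500 ng/mL puromycin and under 4-hydroxytamoxifen, the active form of tamoxifen, then steroid depleted for 72 hours and given 4-hydroxytamoxifen for 8 hours. No cells without 4-hydroxytamoxifen were measured, so the comparison concerns the hairpin in treated cells. The labels do not say whether the replicates were separate cultures, whether a line was a clone or a pool, or how many hairpin sequences were used. The p-values below therefore rest on a spread between libraries that may be technical.

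Libraries held 33771775 to 66248960 reads in shSRC1 and 58459196 to 67022036 in shNT. The shallowest was shSRC1 replicate 2. NCOA1 (ENSG00000084676), the targeted gene, had 1927, 1895, 2215 and 2107 normalized reads in shSRC1, against 4381, 4212, 4467 and 4525 in shNT. It fell by 1.11 on the log2 scale (SE 0.08, limma adjusted p = 2.25e-07), and the hairpin was thus visible in every library. Over all tested genes, 23.2% passed limma's test at an adjusted p under 0.05, 12.0% higher and 11.2% lower in shSRC1. The luminal markers ESR1, GATA3, FOXA1, KRT8, KRT18, KRT19 and EPCAM were all present, and the 3 keratins among them were higher in shSRC1. Summed, the 7 luminal markers had 462972 to 528373 normalized reads in shSRC1 and 291009 to 369166 in shNT, mostly from the keratins. The other 4, none of which passed, summed to 88486 to 93992 in shSRC1 and 89546 to 96001 in shNT, which overlap.

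The start regions of the 3 genes are shown first because they differ in the exact letters searched here. Each sequence is a RefSeq window on GRCh38.p14 running from 250 bases before to 50 bases after an annotated start, on the minus strand, 5′ to 3′. Capitals mark TATAAA (called the TATA box), CCAAT, and ACGTG (the core of a hypoxia response element) on either strand. CITED1 has 3 windows in this set and windows 1 and 3 are printed. CITED2 also has 3, of which the first is printed, and CITED4 has 1.
CITED1, chrX:72307108-72307407: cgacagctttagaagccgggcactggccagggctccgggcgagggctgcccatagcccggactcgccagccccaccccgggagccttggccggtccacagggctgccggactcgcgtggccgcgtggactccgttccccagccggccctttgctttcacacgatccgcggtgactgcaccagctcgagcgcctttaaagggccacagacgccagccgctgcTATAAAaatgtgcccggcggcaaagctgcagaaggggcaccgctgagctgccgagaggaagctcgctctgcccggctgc
CITED1, chrX:72305865-72306164: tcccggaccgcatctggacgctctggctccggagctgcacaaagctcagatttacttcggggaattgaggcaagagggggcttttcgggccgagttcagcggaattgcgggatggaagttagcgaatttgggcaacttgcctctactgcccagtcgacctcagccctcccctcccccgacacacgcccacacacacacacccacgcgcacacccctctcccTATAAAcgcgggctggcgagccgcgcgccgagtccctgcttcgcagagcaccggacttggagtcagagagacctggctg
CITED2, chr6:139374599-139374898: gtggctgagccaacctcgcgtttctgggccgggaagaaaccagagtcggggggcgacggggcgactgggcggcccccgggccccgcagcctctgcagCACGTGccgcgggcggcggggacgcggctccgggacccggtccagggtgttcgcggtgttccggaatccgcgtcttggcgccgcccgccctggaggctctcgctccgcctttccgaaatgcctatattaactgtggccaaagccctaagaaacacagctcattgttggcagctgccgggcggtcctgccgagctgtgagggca
CITED4, chr1:40862314-40862613: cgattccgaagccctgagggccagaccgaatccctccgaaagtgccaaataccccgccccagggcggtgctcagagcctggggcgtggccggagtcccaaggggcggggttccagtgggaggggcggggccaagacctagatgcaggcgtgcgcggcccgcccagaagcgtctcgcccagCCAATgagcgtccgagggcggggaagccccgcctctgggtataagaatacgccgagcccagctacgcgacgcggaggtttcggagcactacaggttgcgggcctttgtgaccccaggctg

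In both printed CITED1 windows the TATAAA begins 29 bases before the annotated start. The second CITED1 window, chrX:72306821-72307120, also holds TATAAA, 79 bases before its start, and a hypoxia core. The exact letters TATAAA were found in 11.5% of all 35116 windows and in none of the 4 windows of CITED2 and CITED4. Variants of them were not searched: the printed CITED4 window holds tataag and the printed CITED2 window tatatt. The first CITED2 window holds CACGTG, which reads the same on both strands and so carries the hypoxia core on each, and that core was found in 21.4% of windows. CITED4 holds CCAAT 70 bases before its start, a sequence found in 34.6% of windows. GGGCGG, the GC box, occurred 6 times in the CITED4 window and 5 times in the first CITED2 window, against 45.0% of windows with at least 1. The AP-2 sequence GCCNNNGGC occurred once in each of these and in none of the CITED1 windows, with 23.2% of all windows holding it. None of the 7 windows held the estrogen response element GGTCANNNTGACC (0.057% of windows), the AP-1 site TGANTCA (7.71%) or the cAMP response element TGACGTCA (1.85%), searched on both strands. The letters are descriptions of these windows and not binding sites.

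CITED2 was the most abundant of the 3 genes in every library, followed by CITED4 and then CITED1. Per kilobase of annotated exon, CITED2 averaged 1187 ± 29.3 normalized reads in shSRC1 and 538 ± 69.3 in shNT (SD, n = 4 each). CITED4 averaged 332 ± 69.2 per kilobase in shSRC1 and 256 ± 43.4 in shNT, and CITED1 32.8 ± 7.57 in shSRC1 and 2.80 ± 2.95 in shNT. The order held in each of the 8 libraries, and no neighbouring levels in it came within their spread of each other. Of the reads of the 3 genes per kilobase, CITED2 made up 76.6% ± 3.30 in shSRC1 and 67.7% ± 1.71 in shNT. The CITED4 share was 21.2% ± 3.28 in shSRC1 and 32.0% ± 1.39 in shNT, while that of CITED1 was 2.12% ± 0.517 in shSRC1 and 0.34% ± 0.347 in shNT. In bulk RNA of this kind, a change in the number of cells that express a gene and a change in RNA per cell cannot be told apart.

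**Figure D1:**
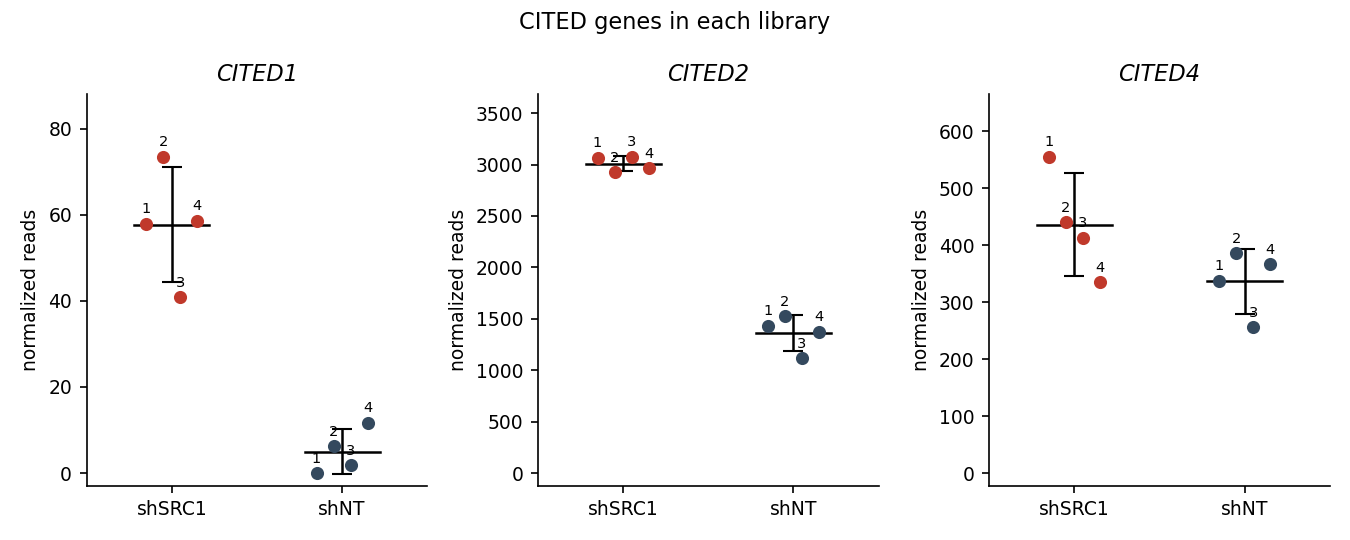
Normalized reads of CITED1, CITED2 and CITED4 in each library (points, numbered by replicate), with the group mean and SD (bars), in shSRC1 and shNT. CITED1 and CITED2 do not overlap between the groups, at 40.9 to 73.5 in shSRC1 against 0 to 11.7 in shNT and 2927 to 3076 in shSRC1 against 1118 to 1527 in shNT, whereas CITED4 does.

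CITED1 (ENSG00000125931, on the minus strand of chromosome X) was near the detection limit in shNT cells and low but clearly present in shSRC1 cells. It had 57.9, 73.5, 40.9 and 58.6 normalized reads in shSRC1, against 0, 6.22, 1.86 and 11.7 in shNT. The groups did not overlap, and the highest shNT library, replicate 4, stood well below the lowest shSRC1 library, replicate 3. These values rest on 61, 42, 45 and 64 reads in shSRC1, against 0, 7, 2 and 13 in shNT. A count of 0 allows up to 3 reads, and 3 reads were worth 2.67 to 2.79 normalized reads in the shNT libraries, so 2 of the 4 shNT values lie at or below that floor.

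Pooled over libraries, 212 reads in shSRC1 stood against 22 in shNT, a depth-corrected ratio of 11.1 with an exact 95% interval of 7.14 to 18.1 that covers counting error only. On the log2(value + 1) scale the difference was 3.84 (SE 0.63), with a 95% interval of 2.48 to 5.20. Single shNT libraries moved these values: without replicate 4, which holds 13 of the 22 reads, the pooled ratio was 20.2 (10.5 to 44.9), and without replicate 1, at 0 reads, it was 8.38 (5.39 to 13.7) and the log2 difference 3.17. Of the 19559 tested genes, 7 had a larger log2 fold change in that direction. CITED1 was chosen by this contrast, so nothing is read from its rank. The relative spread was wide in shNT, where the coefficient of variation was 105%, and 23.1% in shSRC1. In level, CITED1 exceeded 24.4% of tested genes in shSRC1, so even its higher level was a modest one. In shNT it exceeded 0.143% of them, a share set largely by the filter, which removes genes low in both groups.

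In GENCODE 29, the span of CITED1, introns included, shares 1289 bases with that of PIN4, a peptidyl-prolyl isomerase gene on the opposite strand. The labels do not describe a stranded kit. PIN4 had 708, 611, 639 and 775 normalized reads in shSRC1, against 586, 724, 474 and 683 in shNT, and these groups overlapped. In shNT replicate 1 no read was given to CITED1 while PIN4 had 586 normalized reads. Reads from sequence that is exon in both genes cannot be told apart without strand. How much of the shared span is exon in both was not counted.

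CITED1 is known from melanocytes and from nephron progenitors of the mouse kidney, so markers of both were read beside it. Of 6 melanocyte markers, TYR was at 0 in all 8 libraries, DCT averaged 0 in shSRC1 and 0.23 in shNT, and SOX10 averaged 3.61 in shSRC1 and 3.85 in shNT. TYRP1, a melanosome enzyme, averaged 1347 normalized reads in shSRC1 and 1062 in shNT and was higher (log2 fold change 0.34, limma adjusted p = 0.0109), the only 1 of the 3 melanocyte markers tested that passed. The sum of all 6, mostly TYRP1, was 1539 to 1736 in shSRC1 and 1260 to 1412 in shNT. PMEL averaged 276 in shSRC1 and 252 in shNT, MLANA 12.5 in shSRC1 and 17.4 in shNT, and neither passed. Of 7 nephron progenitor markers, SALL1 and MEOX1 were at 0 in all libraries, none of the 3 tested passed, and the sum, mostly SIX2, was 1070 to 1437 in shSRC1 and 1016 to 1534 in shNT. MITF, the main transcription factor of melanocytes, averaged 61.2 ± 13.5 in shSRC1 and 38.6 ± 5.64 in shNT (limma adjusted p = 0.0522). Fibroblast markers summed to 1452 to 1978 in shSRC1 and 1632 to 2184 in shNT, mostly COL1A1. Leukocyte markers summed to 26.2 to 73.3 in shSRC1 and 34.3 to 91.9 in shNT, and none of the tested markers of either type passed. Between libraries of a group, DCN varied from 0.95 to 28.4 in shSRC1 and 0 to 24.1 in shNT. LUM varied from 0 to 17.3 in shSRC1 and 0 to 21.4 in shNT. The part of these markers in the CITED values was not tested.

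CITED2 (ENSG00000164442, on the minus strand of chromosome 6) was about 2.21 times as high in shSRC1 as in shNT, with little spread. It had 3068, 2927, 3076 and 2966 normalized reads in shSRC1, against 1435, 1527, 1118 and 1376 in shNT. The 4 shSRC1 libraries lay close together, with a coefficient of variation of 2.47%, against 12.9% in shNT, where replicate 3 was lowest. The groups did not overlap. The log2 difference was 1.15 (SE 0.10), with a 95% interval of 0.95 to 1.35. The 11527 reads in shSRC1 and 6003 in shNT gave a depth-corrected ratio of 2.21 (2.14 to 2.28, the exact 95% interval of counting error). CITED2 exceeded 76.2% of tested genes in level in shSRC1 and 61.1% in shNT. An unnamed gene annotated across it on the opposite strand, ENSG00000226571, had no reads in any library.

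CITED4 (ENSG00000179862, on the minus strand of chromosome 1) differed least. It had 555, 441, 413 and 335 normalized reads in shSRC1, against 338, 386, 256 and 367 in shNT. The groups overlapped, since shSRC1 replicate 4 lay below 3 of the 4 shNT libraries. The means were 436 ± 91.1 in shSRC1 and 337 ± 57.1 in shNT, a log2 difference of 0.37 (SE 0.16) with a 95% interval of 0.03 to 0.70. That interval allows neither for the choice of the gene nor for the number of genes tested, so it is not read as a test. CITED2 per kilobase was 2.87, 3.45, 3.86 and 4.59 times CITED4 in shSRC1, against 2.20, 2.06, 2.26 and 1.95 times in shNT. That ratio did not overlap between the groups, but neither did CITED2 by itself, which was chosen by this contrast, so nothing is read from it. Within shSRC1 the ratio rose, and the CITED4 share fell, as the library's rho with GC content, given below, fell. The shNT libraries did not follow that order.

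Of all tested genes, 29.0% did not overlap between the groups, 16.9% with shSRC1 higher, and 2 of the 3 CITED genes were of this kind. Since the genes were chosen by this contrast, nothing is read from that count.

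The transcripts of CITED4 are 73.5% G and C, higher than 99.9% of the 18787 tested genes with an annotated sequence, whose median is 48.7%. CITED1 has 61.6% and CITED2 47.9%. Libraries differed in how their values followed base composition: Spearman's rho between GC content and a gene's deviation from its mean over the libraries was 0.48, 0.19, -0.10 and -0.22 in shSRC1, against 0.18, -0.09, -0.22 and -0.21 in shNT. The shSRC1 library with the most CITED4, replicate 1, had the highest rho, and that with the least, replicate 4, the lowest of its group. The shNT libraries did not follow this order, since the one with the highest rho, replicate 1, had less CITED4 than replicates 2 and 4. After a correction of each library for GC content and length, CITED4 had 457, 419, 419 and 379 in shSRC1, against 312, 374, 311 and 351 in shNT, and the groups no longer overlapped. Its SD on the log2 scale was 0.11 in shSRC1 and 0.13 in shNT after the correction, against 0.30 in shSRC1 and 0.26 in shNT before it, and the log2 difference was 0.31. CITED2 lay at 2784 to 3006 in shSRC1 and 1223 to 1494 in shNT after the same correction, and CITED1 at 40.6 to 69.4 in shSRC1 and up to 11.8 in shNT, both still without overlap. The share of all genes without overlap after this correction was not counted, so nothing is read from the separation. Calls over all genes rose with it, from 4538 of 19559 to 5866 of 18787.

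**Figure D2:**
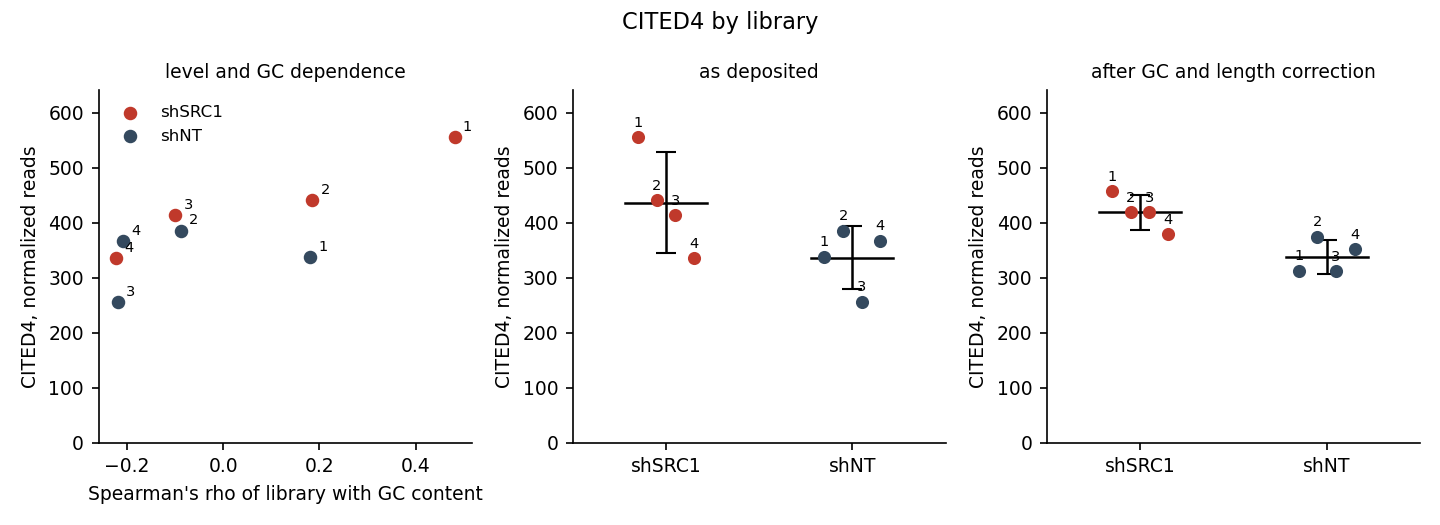
CITED4 normalized reads in each library against that library's rho with GC content (left), as deposited (middle) and after GC and length correction (right), with points numbered by replicate and bars showing mean and SD in shSRC1 and shNT. The groups overlap as deposited, at 335 to 555 in shSRC1 and 256 to 386 in shNT, and narrowly do not after correction, at 379 to 457 in shSRC1 and 311 to 374 in shNT. The share of all genes without overlap after correction was not counted.

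The genes whose pattern over the 8 libraries was most like each CITED gene were found by Pearson's r on log2(value + 1) among 13851 named genes averaging at least 50 normalized reads in 1 of the groups. The points share the group difference and the library properties above, so r is a description with no test. For CITED1 they included ADAM23 (r = 0.98), PGM5 (0.98), MGP (0.98) and CCM2L (0.97) among the first 5. MGP, a matrix protein that inhibits calcification, had 149, 138, 183 and 197 normalized reads in shSRC1, against 7.42, 29.3, 13.9 and 35.9 in shNT, and like CITED1 it was lowest in shNT replicate 1. For CITED2 they were SERPINE2 (0.998), RPRM (0.998), MAGEB1 (0.997), MAGEA1 (0.996) and PRR3 (0.995). RPRM, a p53-induced cell cycle inhibitor, averaged 750 ± 53.3 in shSRC1 and 232 ± 38.9 in shNT, and MAGEA1, a cancer-testis antigen, 6095 ± 83.1 in shSRC1 and 2666 ± 246 in shNT. For CITED4 they included CTXN1 (0.992), EXOSC6 (0.986), TPGS1 (0.979) and JUND (0.978). JUND, an AP-1 subunit, had 5671, 4995, 4606 and 4079 in shSRC1, against 4060, 4372, 2897 and 4290 in shNT, the same order within shSRC1 as CITED4. Transcripts of CTXN1 and JUND are 72.8% and 69.7% G and C, and those of EXOSC6 45.7%.

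The genes that CITED proteins work with were read next, from a list of 64 that covers acetyltransferases, transcription factors, the hypoxia pathway, EGFR ligands and regulators of CITED expression. Of these, 55 were tested, 9 were higher in shSRC1, 7 were lower and 39 did not pass. The share called was 29.1%, against 23.2% of all tested genes, and the median log2 fold change 0.02, against -0.002 over all tested genes. The list was put together with earlier results of these data known. The counts by role below cover few genes each and stand against that same 23.2%, so no trend of a role is read from them. The other 9 were too low to test, among them the hypoxia marker CA9, with 0 reads in shSRC1 and 2 in shNT, and WT1, which CITED2 coactivates in the mouse adrenal, with none in any library.

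**Figure D3:**
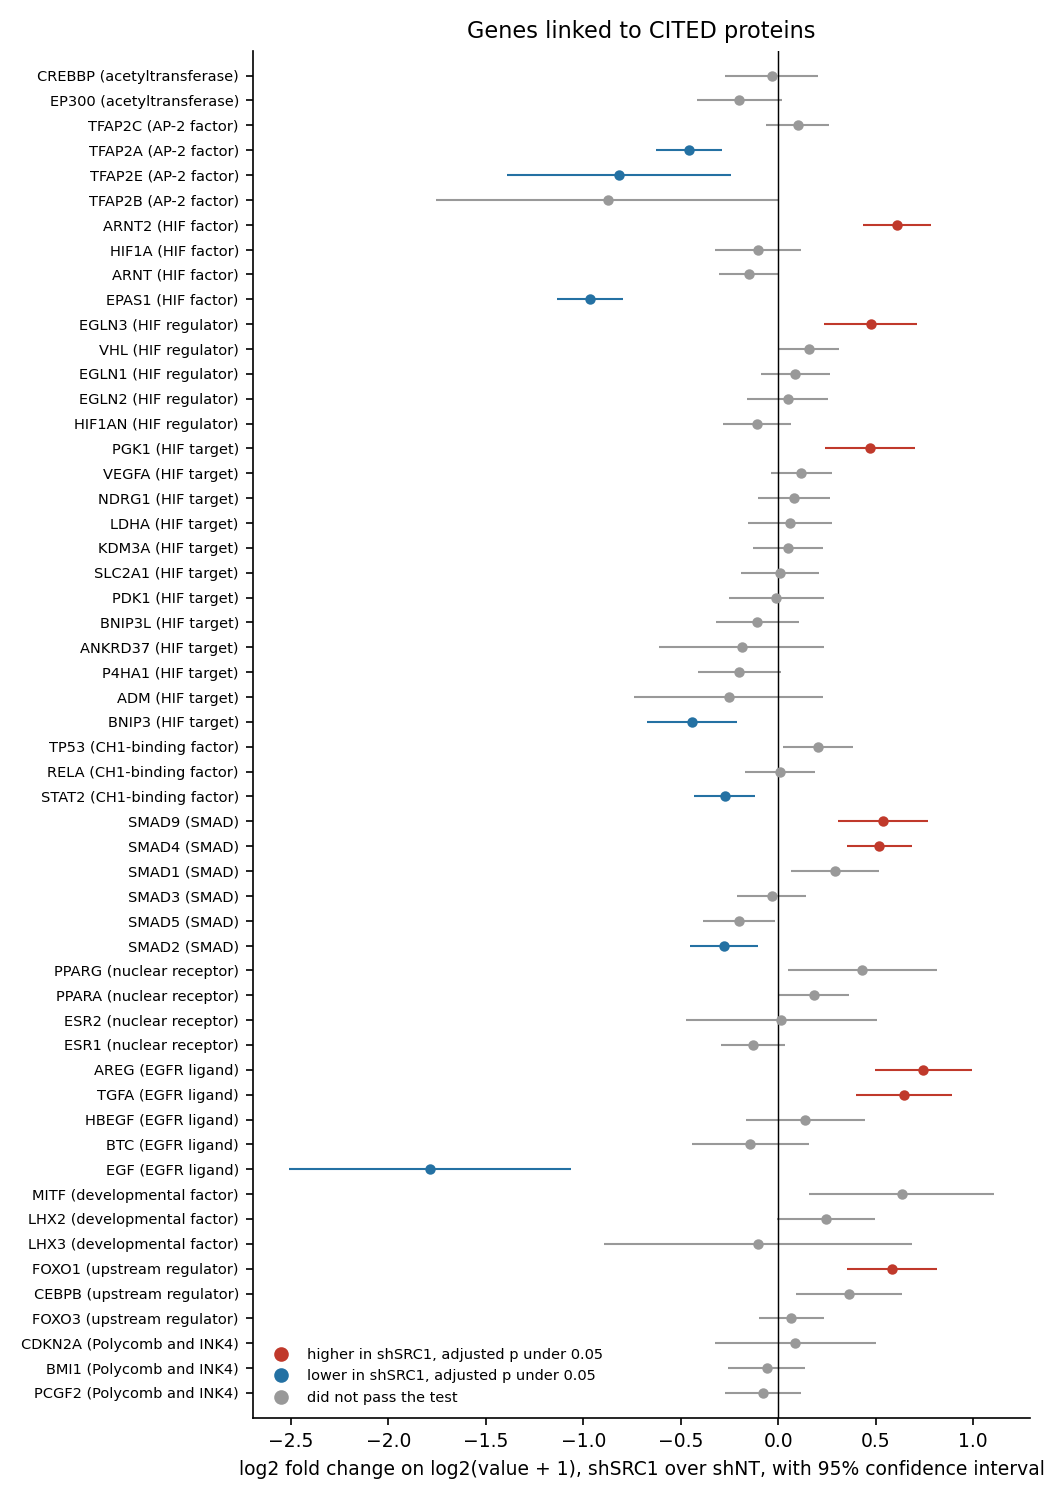
Log2 fold change, shSRC1 over shNT, with its 95% confidence interval for 54 tested genes linked to CITED proteins, grouped by role. Red points are 8 genes higher in shSRC1 and blue the 7 lower at an adjusted p under 0.05, from AREG at 0.74 to EGF at -1.79, and grey points did not pass.

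The acetyltransferases that CITED proteins bind did not pass the test. CREBBP, which encodes CBP, averaged 19186 ± 2195 normalized reads in shSRC1 and 19716 ± 2942 in shNT (limma adjusted p = 0.851). EP300, which encodes p300, averaged 5096 ± 289 in shSRC1 and 5900 ± 912 in shNT (limma adjusted p = 0.164), and passed in 1 alternative, GC and length correction with a replicate block (adjusted p = 0.0430). ESR1, the estrogen receptor that CITED1 coactivates, averaged 18728 ± 946 in shSRC1 and 20472 ± 349 in shNT (limma adjusted p = 0.233). It did not pass, although its groups did not overlap, at 17779 to 19784 in shSRC1 and 20050 to 20796 in shNT. Of all tested genes, 29.0% did not overlap. None of the 4 tested nuclear receptors passed.

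Of the AP-2 factors, the partners of CITED2 and CITED4, 2 of 4 tested were lower and none higher, where 11.2% of all tested genes were lower. TFAP2A had 6014, 5303, 5502 and 5352 normalized reads in shSRC1, against 7926, 7185, 8035 and 7293 in shNT, with no overlap. It fell by 0.46 on the log2 scale (SE 0.08, limma adjusted p = 0.00107). Of the 20 tested genes nearest to TFAP2A on chromosome 6, 6 were lower, against 11.2% of all tested genes, none was higher and the median was -0.23. TFAP2C, the AP-2 factor of luminal breast cells, averaged 9884 ± 350 in shSRC1 and 9231 ± 480 in shNT and did not pass (limma adjusted p = 0.356). TFAP2E was low, at 21.8 ± 5.81 in shSRC1 and 38.2 ± 3.69 in shNT, with a log2 fold change of -0.82 (limma adjusted p = 0.0400). Its call was lost on leaving out shSRC1 replicate 1 or 3 or any 1 of the 4 shNT libraries, with adjusted p between 0.0508 and 0.114.

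In the hypoxia pathway the factors moved in both directions. EPAS1, which encodes HIF-2α, had 906, 845, 849 and 811 normalized reads in shSRC1, against 1746, 1634, 1660 and 1624 in shNT. It fell by 0.97 on the log2 scale (SE 0.08, limma adjusted p = 1.21e-06), with no overlap. ARNT2, a dimer partner of the HIF-α subunits, had 2335, 2183, 2132 and 2178 in shSRC1, against 1395, 1606, 1383 and 1409 in shNT, and rose by 0.61 (SE 0.08, limma adjusted p = 0.000127). HIF1A, whose protein competes with CITED2 for p300, averaged 4351 ± 557 in shSRC1 and 4667 ± 487 in shNT (limma adjusted p = 0.480). Of 5 tested regulators 1 rose, EGLN3, a prolyl hydroxylase of the HIF-α subunits, at 779 ± 76.2 in shSRC1 and 562 ± 67.9 in shNT (log2 fold change 0.47, limma adjusted p = 0.0078). Of 12 tested target genes, 1 was higher and 1 lower. The glycolytic enzyme PGK1 averaged 29599 ± 946 in shSRC1 and 21577 ± 3442 in shNT (log2 fold change 0.47, limma adjusted p = 0.00706). BNIP3, a mitophagy receptor, averaged 1265 ± 93.2 in shSRC1 and 1731 ± 267 in shNT (log2 fold change -0.44, limma adjusted p = 0.00987), and its reads may be shared with processed copies such as BNIP3P1. The other 10 targets, VEGFA, SLC2A1, LDHA and ADM among them, did not pass.

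STAT2, an interferon signal factor that binds the same domain of CBP and p300, averaged 2631 ± 111 in shSRC1 and 3183 ± 96.4 in shNT (log2 fold change -0.28, limma adjusted p = 0.0159). That call was lost without shSRC1 replicate 2 (adjusted p = 0.0546) or 3 (0.0533). Of the 6 SMADs, the signal carriers of the TGF-β and BMP pathways, 2 rose and 1 fell, where 23.2% of all tested genes were called. SMAD4, the shared SMAD that CITED1 binds, had 1851, 1816, 1942 and 1801 in shSRC1, against 1273, 1291, 1227 and 1380 in shNT, and rose by 0.52 (SE 0.08, limma adjusted p = 0.00037). Of the 20 tested genes nearest to SMAD4 on chromosome 18, 11 were higher, against 12.0% of all tested genes, and none lower, with a median of 0.36. SMAD9, a BMP-pathway member, averaged 874 ± 90.7 in shSRC1 and 602 ± 68.2 in shNT (log2 fold change 0.54, limma adjusted p = 0.00305). SMAD2 averaged 3747 ± 284 in shSRC1 and 4539 ± 255 in shNT (log2 fold change -0.28, limma adjusted p = 0.0249). The SMAD2 call was lost without shSRC1 replicate 1, 2 or 3 or shNT replicate 2 or 4 (adjusted p 0.0525 to 0.0772), and after GC and length correction its log2 fold change was -0.04.

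CITED1 is linked to the estrogen-dependent expression of EGFR ligands in breast cells. Of the 5 tested ligands, 2 rose and 1 fell, where 23.2% of all tested genes were called. The cells were steroid depleted and under 4-hydroxytamoxifen, and a link between CITED1 and these ligands was not tested. AREG, amphiregulin, had 860, 939, 758 and 729 normalized reads in shSRC1, against 543, 501, 405 and 512 in shNT, and rose by 0.74 (SE 0.12, limma adjusted p = 0.000489). The table lists a near-identical copy, AREGB, at 653 ± 157 in shSRC1 and 387 ± 51.5 in shNT, so the split of reads between them is uncertain. AREGB was added after its values were seen. TGFA, transforming growth factor α, had 551, 527, 532 and 563 in shSRC1, against 378, 404, 287 and 329 in shNT, and rose by 0.65 (SE 0.12, limma adjusted p = 0.00146). EGF was low, at 5.70, 10.5, 10.9 and 5.50 in shSRC1, against 33.4, 27.5, 34.4 and 23.3 in shNT, and fell by 1.79 (SE 0.34, limma adjusted p = 0.00208). None of these 3 ligands overlapped between the groups. EREG and EPGN were too low to test.

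Of 3 tested upstream regulators of CITED expression, 1 passed. FOXO1, of the forkhead family known to induce CITED2, had 469, 541, 455 and 466 in shSRC1, against 315, 350, 332 and 291 in shNT. It rose by 0.58 (SE 0.11, limma adjusted p = 0.00168). FOXO3, of the same family, averaged 3379 ± 98.3 in shSRC1 and 3231 ± 222 in shNT (limma adjusted p = 0.554), and CEBPB, a bZIP factor, 2485 ± 390 in shSRC1 and 1937 ± 329 in shNT (limma adjusted p = 0.0530). None of the 3 Polycomb and INK4 genes linked to CITED2 in mouse fibroblasts, BMI1, PCGF2 and CDKN2A, passed.

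The 10 nearest tested genes on each side of each CITED gene, by the lowest annotated coordinate of each gene, were read to see whether the surrounding chromosome moved with it. They were counted by order and not by distance. On the lower and higher side they reached 1000 and 1223 kilobases from CITED1, 1283 and 4165 from CITED2, and 384 and 1520 from CITED4. Of these 60 neighbours, 10 were higher in shSRC1 and 3 lower, or 21.7%, close to the 23.2% of all tested genes, with a median log2 fold change of 0.06. Around CITED1, 4 of 20 were higher and none lower. Its nearest neighbours in that order, in which the overlapping PIN4 came further out, were HDAC8, a histone deacetylase with 541 ± 31.0 in shSRC1 and 483 ± 33.4 in shNT (limma adjusted p = 0.232), and the ribosomal protein gene RPS4X. RPS4X averaged 38113 ± 2047 in shSRC1 and 24655 ± 4304 in shNT (log2 fold change 0.64, limma adjusted p = 0.00148), and its reads may be shared with processed copies. RGAG4, a retrotransposon-derived gene (0.59, limma adjusted p = 0.00348), and NAP1L2, a histone chaperone gene (0.57, limma adjusted p = 0.00461), were also higher. The pseudogene NAP1L6 was higher too (0.86, limma adjusted p = 0.0176), but not without shSRC1 replicate 3 or 4 or shNT replicate 1 (adjusted p 0.0501 to 0.0638).

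Around CITED2, 3 of 20 were higher and 2 lower. TXLNB, a taxilin of muscle and the nearest tested gene on the lower-coordinate side, went the other way from CITED2, with 10.4, 15.7, 9.09 and 11.9 normalized reads in shSRC1, against 36.2, 43.5, 65.0 and 55.6 in shNT. It fell by 1.99 (SE 0.29, limma adjusted p = 0.000272), with no overlap. VTA1, the nearest on the other side and a vesicle-sorting gene, averaged 3787 ± 526 in shSRC1 and 3962 ± 327 in shNT (limma adjusted p = 0.634). AIG1, a lipid hydrolase gene, was higher by 0.39 (limma adjusted p = 0.0129), as was the pseudogene ENSG00000217648 by 0.75 (limma adjusted p = 0.0121). CCDC28A was higher by 0.46 (limma adjusted p = 0.0399), a call lost without any 1 of the shSRC1 libraries or without shNT replicate 1 or 3 (adjusted p 0.0542 to 0.115). HIVEP2, a zinc finger factor, fell by 0.29 (limma adjusted p = 0.0247), a call lost without shSRC1 replicate 2 or shNT replicate 1 or 4 (adjusted p 0.0502 to 0.0846).

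Around CITED4, 3 of 20 were higher and 1 lower. CTPS1, a CTP synthase gene, averaged 7567 ± 72.2 in shSRC1 and 6340 ± 439 in shNT (log2 fold change 0.26, limma adjusted p = 0.0265), a call lost without shSRC1 replicate 2, 3 or 4 or shNT replicate 1 or 4 (adjusted p 0.0565 to 0.0703). EDN2, an endothelin, rose by 0.78 (limma adjusted p = 0.0131) and RIMKLA, which makes N-acetylaspartylglutamate, by 0.60 (limma adjusted p = 0.00185). The antisense gene ENSG00000238186 fell by 1.01 on the log2 scale (limma adjusted p = 0.0310), a call lost without shSRC1 replicate 3 or 4 or shNT replicate 1 or 4 (adjusted p 0.0576 to 0.0919). Leaving out shNT replicate 1 brought the calls among all 60 neighbours to 8.

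**Figure D4:**
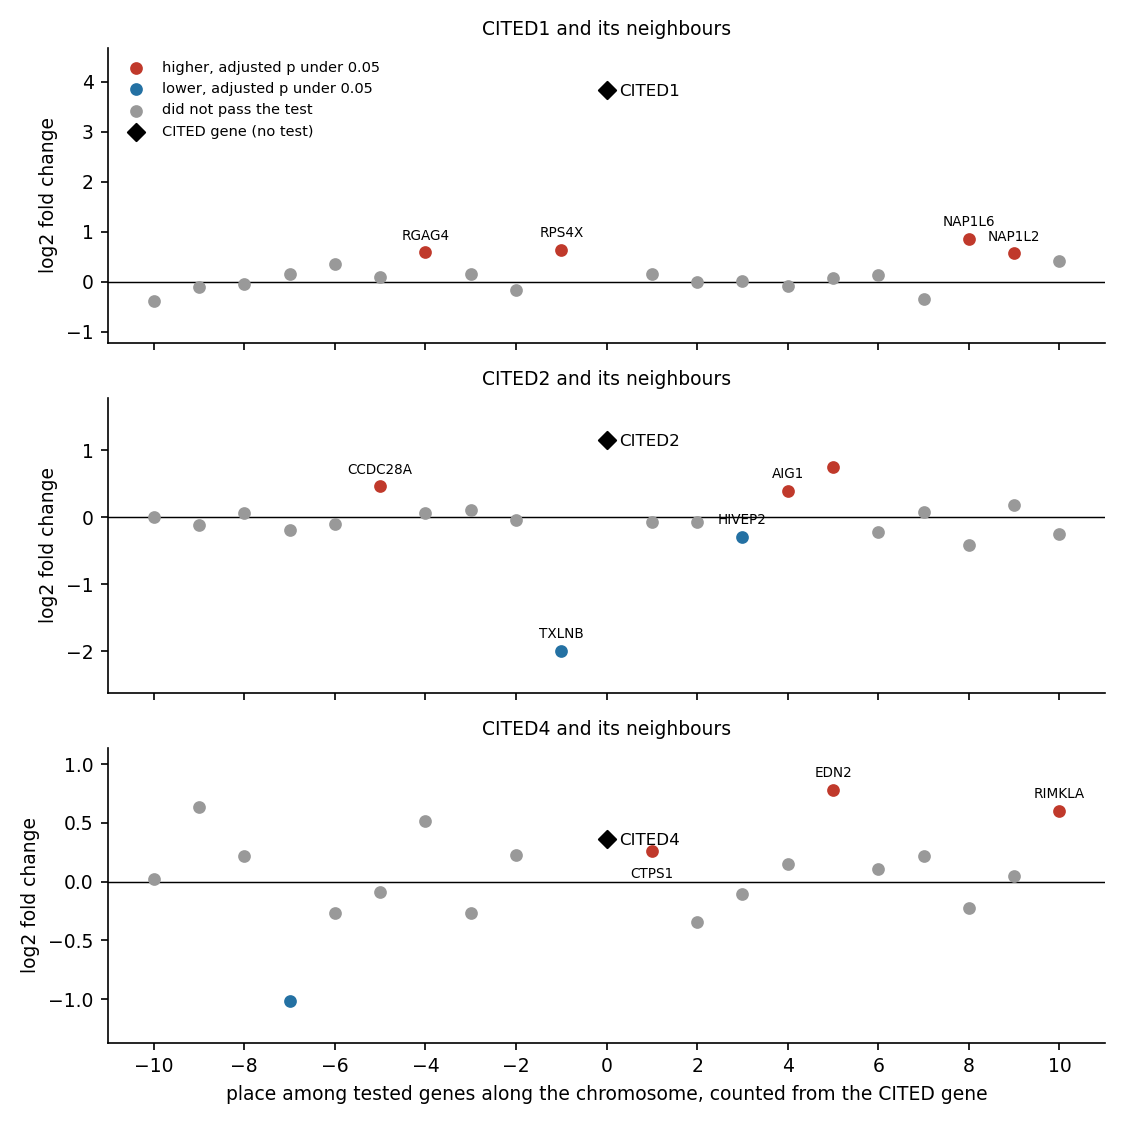
Log2 fold change, shSRC1 over shNT, of each CITED gene (black diamond, no test) and of 59 of the 60 nearest tested genes, up to 10 on each side of each, by order along the chromosome. Red points were higher and blue lower at an adjusted p under 0.05, 4 and 0 around CITED1, 3 and 2 around CITED2 and 3 and 1 around CITED4, and TXLNB at -1.99 lies next to CITED2 at 1.15.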

How the data were processed

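Polyadenylated RNA of 8 LY2 libraries was sequenced, per the labels' protocols. TopHat2 2.0.12, HTSeq 0.6.1, DESeq, DESeq2 and the GRCh37 build are named in the submitters' processing notes. The deposited values are a signal unit, gene counts divided by 1 size factor per library, although the column names speak of counts. Dividing by the step of each column gave whole reads for every value, within 0.001 reads, and these reads gave the depths. All 8 sample columns were used, 4 per group, and the number of unused sample columns was 0.

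Levels are deposited normalized reads. Differences were tested with limma 3.58.1 in R 4.3.3 (mean-variance trend, robust variances, two-sided) on log2(value + 1), over the 19559 genes that reached 10 normalized reads in 4 or more libraries, with Benjamini-Hochberg adjustment over all of them and a threshold of 0.05. The added 1 draws low values together, but a library at 0 reads also draws its group mean down. The log2 difference of a low gene can therefore lie above or below that of its mean levels. For CITED1 it was 3.84, above the log2 of the ratio of its means, 11.7. The files held normalized values, so the count tests edgeR 4.0.16 and DESeq2 1.42.0, run on the recovered reads, were alternatives, beside a replicate block, other scalings, pseudocounts and filters, libraries left out, and a lowess correction for GC content and length. The pipeline was tested on simulated data. Exon lengths, GC content and gene order came from GENCODE 29 on GRCh38, a build other than the authors', and promoter windows from RefSeq.

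The CITED genes, gene lists and tests were chosen with earlier results of these data known. Named genes were NCOA1, the CITED genes, listed partners that passed the test or have a direct role, the nearest and all called neighbours, and the 5 genes most correlated with each CITED gene, and 3 genes that this rule names are not reported here. Genes named as not passing or too low outside this rule (such as MITF, CA9 and VEGFA) were named after their values were seen. Marker lists were luminal, melanocyte, nephron progenitor, fibroblast and leukocyte.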

Additional observations from a re-analysis of the deposited data

Results flagged for a closer look

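Among 52 named genes, 104 groups of 4 libraries were checked for a library far from the other 3, and 4 were picked out, where chance gives about 1 in 20 groups. ARNT2 had 1606 normalized reads in shNT replicate 2, above the other shNT libraries at 1383 to 1409. FOXO1 had 541 in shSRC1 replicate 2, above the other shSRC1 libraries at 455 to 469. RIMKLA had 217 in shNT replicate 3, below the other shNT libraries at 264 to 267. EXOSC6, of the genes most like CITED4, had 2451 in shNT replicate 3, below the other shNT libraries at 2854 to 2920. No CITED gene was among them.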

How the results depend on the processing

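Across 20 alternatives (19 for CITED1, which is not tested at a minimum of 50 normalized reads), the log2 fold change of CITED1 was 2.78 to 4.39, of CITED2 1.06 to 1.21, of CITED4 0.23 to 0.49 and of NCOA1 -1.15 to -1.07. Calls over all genes numbered 3166 to 6498, against 4538. Replicate numbers are shared between the groups, and deviations of same-numbered libraries correlated at 0.24, -0.01, 0.13 and 0.14. For shSRC1 replicates 1, 3 and 4 the same-numbered shNT library correlated best, and for replicate 2 it was shNT replicate 1 (0.07). Whether the numbers mark pairs cannot be told from the labels, so the block was kept as an alternative. With a replicate block, 6398 genes, 20 partner genes and 16 neighbours were called. edgeR called 4637 genes and DESeq2 5304. Leaving out 1 library gave 14 to 17 partner and 8 to 13 neighbour calls. Without the filter on low values, adjusted p was 0.0797 for TFAP2E, 0.0556 for STAT2, 0.0544 for SMAD2, 0.0623 for HIVEP2, 0.0581 for CTPS1 and 0.0545 for ENSG00000238186, since more genes were tested. After GC and length correction it was 0.821 for SMAD2, 0.0548 for CCDC28A, 0.0564 for ENSG00000238186 and 0.0215 for HDAC8, which then passed at 0.28. With that correction and the replicate block together, EP300 passed at -0.21 (adjusted p = 0.0430). Some small changes that did not pass turned direction, and the cause was not tested. CREBBP ranged from -0.11 to 0.034 with 1 library left out, positive on leaving out shSRC1 4 (0.016), shNT 1 (0.023) or shNT 3, and was at 0.036 with shSRC1 replicate 2 and shNT replicate 3 both left out. HIF1A was at 0.091 after GC and length correction, with or without the block. VTA1 ranged from -0.14 to 0.0083 with 1 library left out, positive on leaving out shSRC1 replicate 1, and was at 0.12 after that correction, with or without the block. Depth limits CITED1 in shNT, which rests on 22 reads.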

Other observations

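Some partner genes rose while the median of the tested genes around them was negative. Over all tested genes, 12.0% were higher and 11.2% lower. The counts around SMAD9, AREG and ARNT2 lie near those shares, so no regional trend is read from them. FOXO1 rose by 0.58 on the log2 scale while, of the 20 nearest tested genes, 4 were lower, none higher and the median was -0.22. SMAD9, also on chromosome 13, rose by 0.54 with 3 of its 20 nearest lower, 1 higher and a median of -0.20. AREG rose by 0.74 with 2 lower, 1 higher and a median of -0.19. ARNT2 rose by 0.61 with 3 lower, none higher and a median of -0.01. The partners whose surroundings moved the same way most clearly were SMAD4 and TFAP2A.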
